A study of Mus musculus with 16 samples.

Results

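The 36 genes described here carry glucose through glycolysis, into lactate or the mitochondrial pyruvate dehydrogenase step, or sideways into the pentose phosphate pathway. They were taken as a list by symbol, and probes were found through the gene names in the scanner files. All 36 were on the array, of 20284 symbols with a probe. The list comprises the transporters Slc2a1, Slc2a3, Slc16a1 and Slc16a3, the hexokinases Hk1, Hk2, Hk3 and Hkdc1, the upper glycolytic enzymes Gpi1, Pfkl, Pfkm, Pfkp, Aldoa, Aldoc and Tpi1, and the regulatory enzymes Pfkfb3 and Pfkfb4. It also comprises the lower glycolytic enzymes Gapdh, Pgk1, Pgam1, Bpgm, Eno1, Eno2, Eno3 and Pkm, the pyruvate-handling genes Ldha, Ldhb, Pdk1 and Pdha1, and the pentose phosphate genes G6pdx, Pgls, Pgd, Rpia, Rpe, Tkt and Taldo1.

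Glycolysis splits glucose into pyruvate and yields ATP without oxygen. The pentose phosphate pathway has an oxidative arm, G6pdx, Pgls and Pgd, which makes NADPH, and a non-oxidative arm, Rpia, Rpe, Tkt and Taldo1, which interconverts sugar phosphates and supplies ribose. In phagocytes NADPH feeds the oxidase that makes superoxide, and mature neutrophils are known for their reliance on glycolysis and for few mitochondria.

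RNA was profiled on 16 single-colour Agilent arrays in 8 groups of 2. Monocyte-dendritic cell progenitors (MDPs) and common monocyte progenitors (cMoPs) were sorted from bone marrow of Irf8KO mice, which lack the transcription factor IRF8, and of WT mice. The mouse myeloid progenitor line 32Dcl.3, kept in WEHI3B conditioned medium, was collected 3 days after retroviral transduction with 2 plasmids. C/EBPalpha cells carried empty MSCV-IRES-hCD8t with MSCV-C/EBPalpha-IRES-puro, and IRF8 cells carried MSCV-IRF8-IRES-hCD8t with empty MSCV-IRES-puro. Cells with both factors carried both factor plasmids, and the control cells carried both plasmids empty. The inserts were murine cDNAs under the retroviral promoter, so a factor was forced into a cell line and not restored at its own locus. The sources used here give no strain, age, sort gate or number of mice per array. The 2 arrays of a group came from 2 independent experiments.

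Signals below are log2 values relative to the 75th percentile of the same array, and a change is a difference between group means on that scale. A gene was called at a Benjamini-Hochberg adjusted p under 0.05 in limma, fitted over 11945 genes in progenitors and 13319 genes in 32Dcl.3 cells. Of the list, 34 genes passed the filter on dim probes in progenitors and 36 in 32Dcl.3 cells. Hkdc1 and Eno2 were not above background on any progenitor array. Large shares of all genes were called, so each count of members is given beside that share. Groups did not overlap for most members: 27 of 34 tested in MDPs and 31 of 34 in cMoPs. In 32Dcl.3 cells it was 31 to 36 of 36, depending on the comparison. The share of all genes without overlap was not computed, so non-overlap is a description only.

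The MDP arrays, the cMoP arrays and the 32Dcl.3 arrays lay on 3 separate slides. Within each slide genotype or factor followed the row or column of the array, so position and group cannot be told apart. Between 37.27% and 56.24% of probes were well above background, and no spot was saturated. Brightness before scaling followed the group. The 75th percentile signal was 445.3 and 460.2 with empty vectors and 367 and 368.6 with IRF8. With C/EBPalpha it was 214.6 and 218.3, and with both factors 147.3 and 153.8. It was 67.79 to 80.96 on MDP arrays and 455.6 to 568.1 on cMoP arrays. The part of brightness in the changes below was not tested. The Irf8 probe was above background on Irf8KO arrays and changed by -0.55 in MDPs and -1.48 in cMoPs; the sources used here do not say whether it lies in the deleted part of the gene. The Irf8 and Cebpa probes were not above background on any 32Dcl.3 array, so they do not check the labels of the transduced cells. Kit and Cx3cr1, known markers of such progenitors, were above background in the progenitors and not in the 32Dcl.3 cells.

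The 250 bases before a listed transcript start are shown for 4 genes whose changes recur below: both NADPH-producing dehydrogenases, the ribose isomerase Rpia and the lactate dehydrogenase Ldha. They are RefSeq promoter windows on GRCm38.p6, read 5′ to 3′ on the strand of the gene. Pgd lies at chr4:149166706-149166955 on the minus strand, G6pdx at chrX:74428881-74429130 on the minus strand, Rpia at chr6:70792176-70792425 on the minus strand and Ldha at chr7:46845554-46845803 on the plus strand. For Pgd and Ldha, with 2 starts each in the promoter table, the outermost of these is shown; the annotated Ldha gene begins further upstream, so its window lies inside the gene. Capitals mark matches on either strand to the motifs searched.
Pgd: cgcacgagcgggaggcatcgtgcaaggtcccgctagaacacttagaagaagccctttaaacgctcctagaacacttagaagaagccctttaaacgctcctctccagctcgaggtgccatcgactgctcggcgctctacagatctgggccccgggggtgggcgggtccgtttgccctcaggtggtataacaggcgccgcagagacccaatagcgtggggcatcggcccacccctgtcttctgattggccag
G6pdx: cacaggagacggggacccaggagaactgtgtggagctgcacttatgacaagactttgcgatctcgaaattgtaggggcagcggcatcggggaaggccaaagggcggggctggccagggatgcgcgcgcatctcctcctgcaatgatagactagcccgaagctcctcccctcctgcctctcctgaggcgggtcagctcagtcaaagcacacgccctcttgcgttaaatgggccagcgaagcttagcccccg
Rpia: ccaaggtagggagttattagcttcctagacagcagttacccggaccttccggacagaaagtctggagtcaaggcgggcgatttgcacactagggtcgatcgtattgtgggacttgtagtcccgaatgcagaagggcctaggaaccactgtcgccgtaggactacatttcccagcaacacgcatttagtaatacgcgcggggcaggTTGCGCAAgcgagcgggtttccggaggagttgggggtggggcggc
Ldha: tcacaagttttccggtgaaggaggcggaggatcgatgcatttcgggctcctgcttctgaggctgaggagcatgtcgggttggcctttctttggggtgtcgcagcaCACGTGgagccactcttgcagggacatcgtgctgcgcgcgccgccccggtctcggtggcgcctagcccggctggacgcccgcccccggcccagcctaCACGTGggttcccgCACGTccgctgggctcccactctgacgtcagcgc
The capitals in Rpia are a match to the C/EBP palindrome TTGCNNAA, 45 bases before the start. Those in Ldha are 2 E-boxes, CACGTG, each of which also holds the hypoxia-factor core ACGTG, and 1 further ACGTG on the opposite strand. Pgd and G6pdx held no match.

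In all, 35 of the 36 genes had a window, and Slc2a3 had none. TTGCNNAA was found in 4 of 49 member windows (8.16%) and in 9.56% of 32851 windows genome-wide. ACGTG was found in 15 of 49 member windows (30.61%), from 12 genes, and in 16.57% of all windows. CACGTG, every match of which also counts for ACGTG, was found in 4 member windows (8.16%) and in 6.02% of all windows. An interferon response element, read as GAAA repeated after 2 free bases, was found in 1 member window, that of Rpe (2.04%), and in 2.98% of all windows. An ETS-IRF composite, GGAA and GAAA with 2 free bases between, was likewise found in 1 member window, that of Pdk1 (2.04%), and in 2.3% of all windows. These are letter matches on either strand and not shown sites.

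Irf8KO MDPs were compared with WT MDPs to ask what the loss of IRF8 does at the earlier stage. Lactate dehydrogenase B, which favours the conversion of lactate to pyruvate, fell most, and the lower glycolytic enzymes Pgam1 and Pgk1 fell with it. Hexokinase 3, the hexokinase typical of myeloid cells, and Pfkfb4, one of the enzymes that set the level of the phosphofructokinase activator fructose 2,6-bisphosphate, rose. Of 34 members tested, 5 were called higher and 16 lower in Irf8KO MDPs, against 22.7% of all genes called higher and 28.7% called lower. The median change of the members was -0.118, and that of all genes -0.0251.

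Ldhb stood at 2.99 and 2.97 on the Irf8KO arrays and at 4.55 and 4.56 on the WT arrays, a change of -1.58 (SE 0.0389, limma adjusted p = 6.35e-10). Ldha, the isozyme that favours lactate formation, stood at 8.96 and 8.96 in Irf8KO MDPs and at 9.35 and 9.26 in WT MDPs. Its change was -0.34, and -0.76 to -0.34 across its probes. Both isozymes were lower on both Irf8KO arrays than on either WT array, Ldhb by far more. Hk3 stood at 6.88 and 6.90 in Irf8KO MDPs and at 6.23 and 6.34 in WT MDPs, a change of 0.61 (SE 0.0395, limma adjusted p = 7.5e-07). Hk1, the widely expressed hexokinase, stood at 5.29 and 5.27 in Irf8KO MDPs and at 5.57 and 5.65 in WT MDPs, a change of -0.34. Hk2, the inducible form, stood at 2.73 and 2.69 in Irf8KO MDPs and at 2.87 and 2.90 in WT MDPs, a change of -0.17. Thus Hk3 was higher on every Irf8KO array and Hk1 and Hk2 lower, with no overlap of groups.

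Pfkfb4 stood at 1.95 and 1.96 in Irf8KO MDPs and at 1.44 and 1.43 in WT MDPs, a change of 0.52 (SE 0.0483, limma adjusted p = 1.04e-05). Its relative Pfkfb3, the strongly kinase-biased form, stood at 3.37 and 3.52 in Irf8KO MDPs and at 3.43 and 3.30 in WT MDPs, and the groups overlapped. Aldoc, the aldolase best known from brain, stood at -1.30 and -1.37 in Irf8KO MDPs and at -0.82 and -0.70 in WT MDPs, a change of -0.58 (SE 0.124, limma adjusted p = 0.0031). Aldoa, the main aldolase of muscle and blood cells, changed by 0.09 and was not called, with 9.54 and 9.58 in Irf8KO MDPs and 9.46 and 9.48 in WT MDPs. Of the aldolases, Aldoc was called and Aldoa was not.

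By role, 5 of 7 lower glycolytic genes tested were called lower. Pgam1, phosphoglycerate mutase, changed by -0.48 and Pgk1, phosphoglycerate kinase, by -0.39. Among 7 upper glycolytic genes 1 was called higher, Gpi1 at 0.19, and 4 lower, with the phosphofructokinases Pfkl at -0.43 and Pfkp at -0.49. Among 7 pentose phosphate genes 2 were called higher, Rpia at 0.19 and Rpe at 0.20, and 1 lower, Pgls at -0.11. Every called member kept its direction under 5 other background or scaling settings, and 2 higher and 13 lower were also called under all 5. Monocyte and dendritic progenitor genes went both ways in Irf8KO MDPs, 5 of 9 tested called higher and 4 lower. Their summed signal was 1090 to 1100, against 1450 to 1480 in WT MDPs. All 7 tested basophil, mast cell and eosinophil genes were lower, with summed signals of 3.87 to 4.22 against 19.7 to 20.0. Of these, Prg2, Cpa3 and Fcer1a passed the filter only through the WT MDP arrays, so their calls are no support. All 4 tested erythroid genes were lower, 0.711 to 0.716 against 15.5 to 16.1. Hba-a1, Hba-a2 and Car1 were also above background in cMoPs of both genotypes. The call of the remaining gene is no support. Of 9 erythroid genes with a probe, 0 were above background in Irf8KO MDPs. All 3 tested B cell genes were called higher in Irf8KO MDPs (summed signal of 7 genes 51.5 to 52.2, against 36.6 to 37.5 in WT MDPs), with 4 of 7 above background in Irf8KO MDPs and 3 of 7 in WT MDPs. Of 4 tested T and NK cell genes 3 were called higher (summed signal of 6 genes 197 to 203, against 155 to 157). Above background were 4 of 6 in Irf8KO MDPs and 2 of 6 in WT MDPs. Among the 3, Il7r and Klrd1 passed the filter only through the Irf8KO MDP arrays, so their calls are no support. The remaining call was Nkg7 at 0.35. The part of these cell types in the members' changes was not tested. In bulk RNA fewer cells of a type and less RNA per cell cannot be told apart.

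Irf8KO cMoPs were compared with WT cMoPs to ask the same at the later stage. Pfkfb4 and Pfkfb3 rose together, as did the lactate exporter Slc16a3, Hk3 and the pentose phosphate isomerases Rpia and Rpe. The high-affinity glucose transporter Slc2a3 and Ldhb fell. Of 34 members, 14 were called higher and 11 lower in Irf8KO cMoPs, against 22.9% and 31.1% of all genes, with a median of 0.0174 against -0.0255 over all genes. Of these, 6 higher and 10 lower were called in the same direction under all 5 other settings. Slc2a1, Aldoa, Eno1, Pkm, Tkt and Taldo1 were called higher but turned negative with scaling by the array median.

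Pfkfb4 stood at 2.45 and 2.44 in Irf8KO cMoPs and at 1.06 and 1.07 in WT cMoPs, a change of 1.38 (SE 0.0483, limma adjusted p = 4.15e-09). Pfkfb3 stood at 3.75 and 3.80 in Irf8KO cMoPs and at 2.66 and 2.66 in WT cMoPs, a change of 1.12 (SE 0.0573, limma adjusted p = 7.02e-08). By their brightest probes both bifunctional enzymes were more than 1 log2 unit higher on each Irf8KO array than on either WT array. The other Pfkfb3 probe changed by 0.65, and the other Pfkfb4 probe was not above background. Slc2a3 stood at -1.17 and -1.53 in Irf8KO cMoPs and at 0.02 and -0.10 in WT cMoPs, a change of -1.31 (SE 0.114, limma adjusted p = 4.37e-06). Slc2a1, the transporter of basal glucose uptake, stood at 1.54 and 1.56 in Irf8KO cMoPs and at 1.18 and 1.33 in WT cMoPs, a change of 0.30 that became -0.02 under array-median scaling. Slc2a3 was called lower under all 5 other settings and Slc2a1 was not called higher under all of them.

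Ldhb stood at 2.62 and 2.66 in Irf8KO cMoPs and at 3.76 and 3.84 in WT cMoPs, a change of -1.16 (SE 0.0389, limma adjusted p = 2.91e-09). Ldha stood at 7.91 and 7.84 in Irf8KO cMoPs and at 8.26 and 8.27 in WT cMoPs, a change of -0.39, and of -0.52 to -0.39 across its probes. Slc16a3 stood at 2.68 and 2.70 in Irf8KO cMoPs and at 1.85 and 1.93 in WT cMoPs, a change of 0.80 (SE 0.0691, limma adjusted p = 3.93e-06). So both dehydrogenase isozymes were lower and the lactate exporter higher, without overlap. Slc16a1, a carrier for lactate uptake and release, stood at -1.65 and -1.54 in Irf8KO cMoPs and at -1.75 and -1.99 in WT cMoPs and was not called. Hk3 stood at 6.09 and 6.12 in Irf8KO cMoPs and at 5.30 and 5.32 in WT cMoPs, a change of 0.79 (SE 0.0395, limma adjusted p = 5.56e-08). Hk1 stood at 4.44 and 4.38 in Irf8KO cMoPs and at 4.57 and 4.60 in WT cMoPs, a change of -0.17. Hk2 overlapped between genotypes, at 2.89 and 2.92 in Irf8KO cMoPs and 2.88 and 2.91 in WT cMoPs, and its change of 0.01 became -0.30 under array-median scaling.

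Of 7 pentose phosphate genes, 5 were called higher and 1 lower in Irf8KO cMoPs, with a median of 0.204 that became -0.11 under array-median scaling. Rpia changed by 0.72 (SE 0.0438, limma adjusted p = 2.74e-07) and Rpe by 0.62. Pgd changed by 0.33, while Tkt at 0.14 and Taldo1 at 0.20 turned negative under array-median scaling. G6pdx, the entry step, was the member called lower, with 5.28 and 5.33 in Irf8KO cMoPs against 5.73 and 5.73 in WT cMoPs, a change of -0.43 (SE 0.0333, limma adjusted p = 1.87e-06). The pathway's entry enzyme and its isomerases thus moved in opposite directions. All 10 neutrophil genes were called higher in Irf8KO cMoPs (summed signal 860 to 889 against 62.3 to 62.6 in WT cMoPs), and in Irf8KO MDPs 5 were higher and 4 lower (121 to 123 against 31.2 to 31.9 in WT MDPs). In MDPs Ltf and Ngp were above background on no array and Camp on no Irf8KO array. Any MDP change of Ltf or Ngp therefore compares signals under background. All 9 proliferation genes were called lower in Irf8KO cMoPs (258 to 266 against 337 to 345). Monocyte and dendritic progenitor genes went both ways, 3 of 9 tested higher and 5 lower (837 to 839 against 839 to 860). Klf4 at -5.27 and Irf5 at -4.07 fell most among them. The part of these programmes in the members' changes was not tested.

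**Figure D1:**
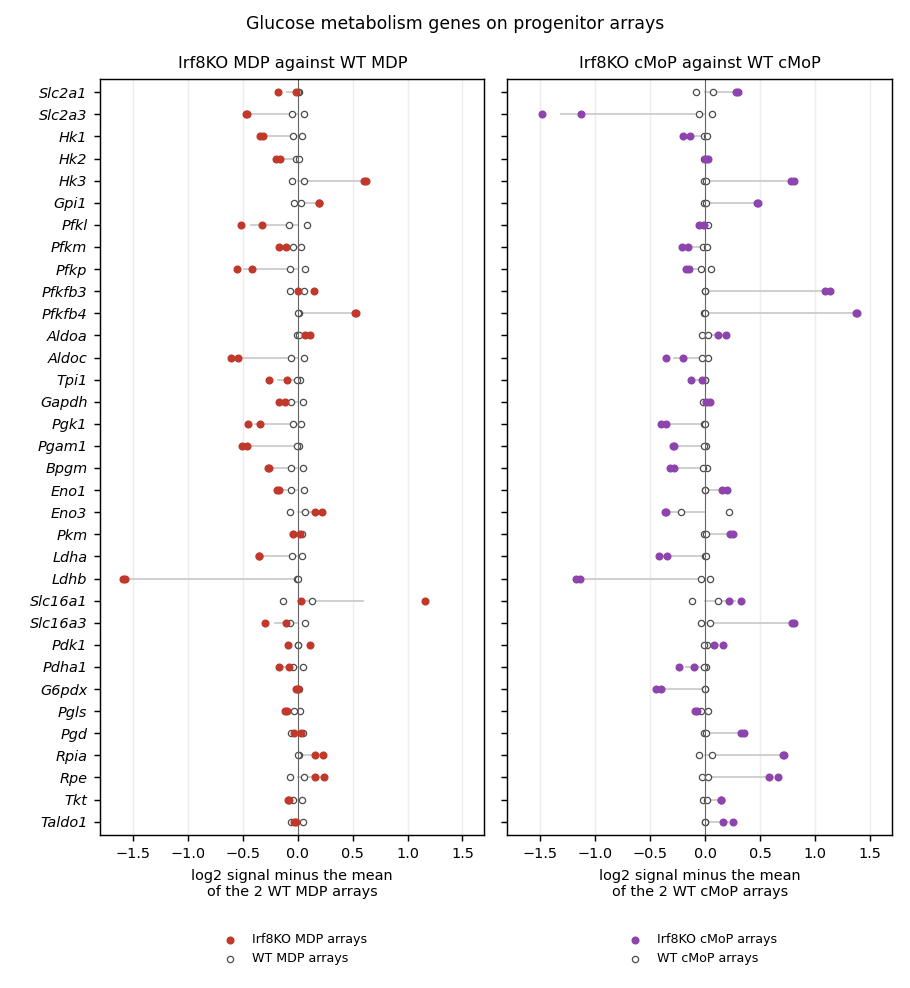
Log2 signal of each of the 34 tested members (rows) on each array minus the mean of the 2 WT arrays of the same stage (horizontal axis, log2 units). Filled points are Irf8KO arrays, open points WT arrays, and grey bars run to the mean change. Ldhb lies far left in both panels, at -1.58 in MDPs and -1.16 in cMoPs, and Pfkfb4, Pfkfb3 and Slc16a3 lie to the right in the cMoP panel, at 1.38, 1.12 and 0.80.

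The test of the difference between the stages (Irf8KO effect in cMoPs less the effect in MDPs) was called positive for 19 of 34 members and negative for 3, against 11.6% and 13.2% of all genes. The positive calls with the largest values were those of Pfkfb3, Slc16a3 and Pfkfb4. The median of this difference was 0.194 for members and -0.00779 for all genes. Since stage coincides with slide, the difference of effects rests on contrasts within each slide, but stage and slide cannot be told apart. Pfkfb3 differed by 1.04 (SE 0.081, limma adjusted p = 1.15e-05) by its brightest probe, which changed by 0.08 in MDPs and 1.12 in cMoPs. Its other probe changed by -0.20 in MDPs and 0.65 in cMoPs. Slc16a3 differed by 1.01 (SE 0.0977, limma adjusted p = 5.24e-05), with 2.35 and 2.16 in Irf8KO MDPs and 2.53 and 2.39 in WT MDPs, a change of -0.21 there. The lactate exporter therefore moved down in MDPs and up in cMoPs. Pfkfb4 differed by 0.85 (SE 0.0683, limma adjusted p = 1.39e-05) and Rpia by 0.52 (SE 0.062, limma adjusted p = 0.000192). Rpia stood at 5.01 and 4.94 in Irf8KO MDPs, against 4.79 and 4.78 in WT MDPs, and at 4.18 and 4.19 in Irf8KO cMoPs, against 3.41 and 3.53 in WT cMoPs.

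Slc2a3 differed by -0.84 (SE 0.161, limma adjusted p = 0.004), with 1.20 and 1.19 in Irf8KO MDPs and 1.61 and 1.72 in WT MDPs. Its fall was present at both stages and deeper in cMoPs. Of 10 neutrophil genes 9 were called positive and 1 negative for this difference of effects (median 2.71). Among these genes Ltf and Ngp were above background on no MDP array and Camp on no Irf8KO MDP array. Monocyte and dendritic progenitor genes went both ways, 3 of 9 positive and 6 negative (median -0.863). Of 7 basophil, mast cell and eosinophil genes 6 were positive and 1 negative (median 2.23). Prg2, Cpa3 and Fcer1a among them were tested only through the WT MDP arrays. The part of these genes in the members' differences was not tested. Eno3, the enolase best known from muscle, differed by -0.56 (SE 0.167, limma adjusted p = 0.0344), and this call held in 2 of 8 fits that left out 1 array. It stood at 1.84 and 1.78 in Irf8KO MDPs and 1.55 and 1.69 in WT MDPs, then at 0.62 and 0.63 in Irf8KO cMoPs and 0.77 and 1.21 in WT cMoPs. Eno1, the ubiquitous enolase, stood at 7.32 and 7.30 in Irf8KO MDPs and 7.43 and 7.55 in WT MDPs, and at 7.42 and 7.37 in Irf8KO cMoPs and 7.22 and 7.22 in WT cMoPs. Only 4 members higher and 3 lower kept their call under all 5 other settings, namely Pfkfb3, Pfkfb4, Slc16a3 and Rpia, and Slc2a3, Eno3 and G6pdx. With the array median as scale 4 were higher, and the count of higher members was 11 or 12 without Irf8KO_MDP replicate 1, WT_cMoP replicate 1 or either Irf8KO_cMoP array.

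In 32Dcl.3 cells, C/EBPalpha, a transcription factor that drives granulocyte and monocyte commitment, was compared with empty vectors. The pentose phosphate pathway rose: 6 of its 7 genes were called higher, led by Pgd, G6pdx and Rpia, and the remaining gene, Pgls at -0.13, turned positive under another scaling. Slc16a3, Pfkfb4 and Gpi1, the isomerase between glucose 6-phosphate and fructose 6-phosphate, rose as well. Hkdc1, a hexokinase-like gene, fell by 3.25 on the log2 scale, with Hk2 and Slc2a1. Of 36 members 17 were called higher and 17 lower, against 31.5% and 47.2% of all genes, with a median of 0.0192 against -0.141.

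Pgd stood at 6.84 and 6.80 with C/EBPalpha and at 4.86 and 4.89 with empty vectors, a change of 1.94 (SE 0.0288, limma adjusted p = 9.33e-14). G6pdx stood at 6.06 and 6.06 with C/EBPalpha and at 4.68 and 4.75 with empty vectors, a change of 1.35 (SE 0.0305, limma adjusted p = 2.71e-12). Both NADPH-producing dehydrogenases were thus more than 1 log2 unit higher on every C/EBPalpha array. Rpia changed by 1.04 (SE 0.0364, limma adjusted p = 9.35e-11), with 3.91 and 3.87 against 2.81 and 2.88. Rpe changed by 0.96 and Tkt by 0.49, and Taldo1 by 0.41. The median over the 7 genes was 0.963, against -0.141 over all genes, and 5 of them, Pgd, G6pdx, Rpia, Rpe and Tkt, were called higher under all 5 other settings.

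Hkdc1 stood at -3.53 and -3.68 with C/EBPalpha and at -0.36 and -0.34 with empty vectors, a change of -3.25 (SE 0.102, limma adjusted p = 3.66e-11) that became -1.49 with normexp background correction. Hk2 stood at 1.79 and 1.74 with C/EBPalpha and at 2.66 and 2.71 with empty vectors, a change of -0.92. These 2 hexokinases fell while Hk1, at 5.43 and 5.44 with C/EBPalpha and 5.44 and 5.51 with empty vectors, was not called; its change of -0.04 became 0.17 to 0.21 under 3 other settings and -0.21 and -0.35 under 2, with a call in each, so Hk1 has no settled direction. Hk3 stood at 3.91 and 3.99 with C/EBPalpha and at 4.23 and 4.20 with empty vectors, a change of -0.27. Hk3 and Hk1 thus moved less than Hkdc1 and Hk2.

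Slc16a3 stood at 1.36 and 1.39 with C/EBPalpha and at -0.38 and -0.52 with empty vectors, a change of 1.83 (SE 0.0744, limma adjusted p = 3.6e-10). Slc16a1 stood at -1.41 and -1.21 with C/EBPalpha and at -1.62 and -1.71 with empty vectors, a change of 0.35. Pfkfb4 stood at 1.71 and 1.71 with C/EBPalpha and at 0.16 and 0.24 with empty vectors, a change of 1.51 (SE 0.0517, limma adjusted p = 8.13e-11). Each of these was higher on both C/EBPalpha arrays. Pfkfb3, at 2.82 and 2.88 with C/EBPalpha and 2.58 and 2.51 with empty vectors, changed by 0.30, which became -0.00 under array-median scaling. Ldhb was well above background only on the C/EBPalpha arrays, at -3.74 and -3.46 against -7.05 and -7.02 with empty vectors. It was at least 2.87-fold higher, a change of 3.43 that became 1.22 with normexp background correction. Ldhb passed the filter on dim probes only through these arrays, so its calls are counted but no p-value is given as support. Ldha stood at 8.59 and 8.57 with C/EBPalpha and at 9.06 and 9.07 with empty vectors, a change of -0.48; across its probes the change was -1.04 to -0.48. So the lactate-forming isozyme was lower and the other was detected only with C/EBPalpha.

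All 10 neutrophil genes were called higher with C/EBPalpha (summed signal 3370 to 3410 against 97.0 to 97.9 with empty vectors). All 9 proliferation genes were lower (219 to 224 against 385 to 401). Monocyte and dendritic progenitor genes were mostly higher, 5 of 7 tested, with 1 lower (59.1 to 60.8 against 22.0 to 22.5). The neutrophil gene Mmp8 and the monocyte gene Ccr2 were above background on no empty-vector array, so their calls are no support. The part of these programmes in the members' changes was not tested. Of the 17 and 17 called, 11 higher and 8 lower kept their call under all 5 other settings; 8 changed direction in at least one, namely Pfkp, Pfkfb3, Aldoc, Gapdh, Pgam1, Eno1, Pkm and Pgls.

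IRF8 alone was compared with empty vectors. Hkdc1 rose and Hk3 fell, and no other called member changed by 0.5 or more on the log2 scale. In all, 10 of 36 members were called higher and 9 lower, against 22.7% and 25.4% of all genes. The median was -0.0556, and that of all genes -0.0311. Hkdc1 stood at 0.78 and 0.73 with IRF8 against -0.36 and -0.34 with empty vectors, a change of 1.11 (SE 0.102, limma adjusted p = 3.25e-06). Hk3 stood at 3.30 and 3.26 with IRF8 against 4.23 and 4.20 with empty vectors, a change of -0.94 (SE 0.0343, limma adjusted p = 9.41e-10). The fall of Hk3 with IRF8 stands beside its rise in Irf8KO cells. Hk2, at 2.29 and 2.29 with IRF8, changed by -0.39, and Hk1, at 5.55 and 5.56, by 0.08, which turned to -0.01 with normexp background correction. Eno3 at 0.48, G6pdx at 0.40, Pfkp at 0.33 and Rpia at -0.46 were the next largest. With IRF8, 7 of 10 neutrophil genes were called lower and 2 higher (summed signal 69.7 to 70.1, against 97.0 to 97.9 with empty vectors). Lower too were 5 of 6 tested basophil, mast cell and eosinophil genes (26.1 to 27.5 against 37.0 to 37.2). Proliferation genes were lower in 8 of 9 cases and higher in 1 (350 to 355 against 385 to 401). Monocyte and dendritic progenitor genes were higher in 4 of 7 tested and lower in 1 (96.6 to 98.0 against 22.0 to 22.5). Ccr2, among the 4, was above background on no empty-vector array, so its call is no support. The part of these programmes in the members' changes was not tested. Counts were small: 6 higher and 5 lower kept their call under all 5 other settings, and 6 were higher without 32D_empty replicate 1 or 32D_IRF8 replicate 1, and 5 were lower without 32D_IRF8 replicate 1.

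**Figure D2:**
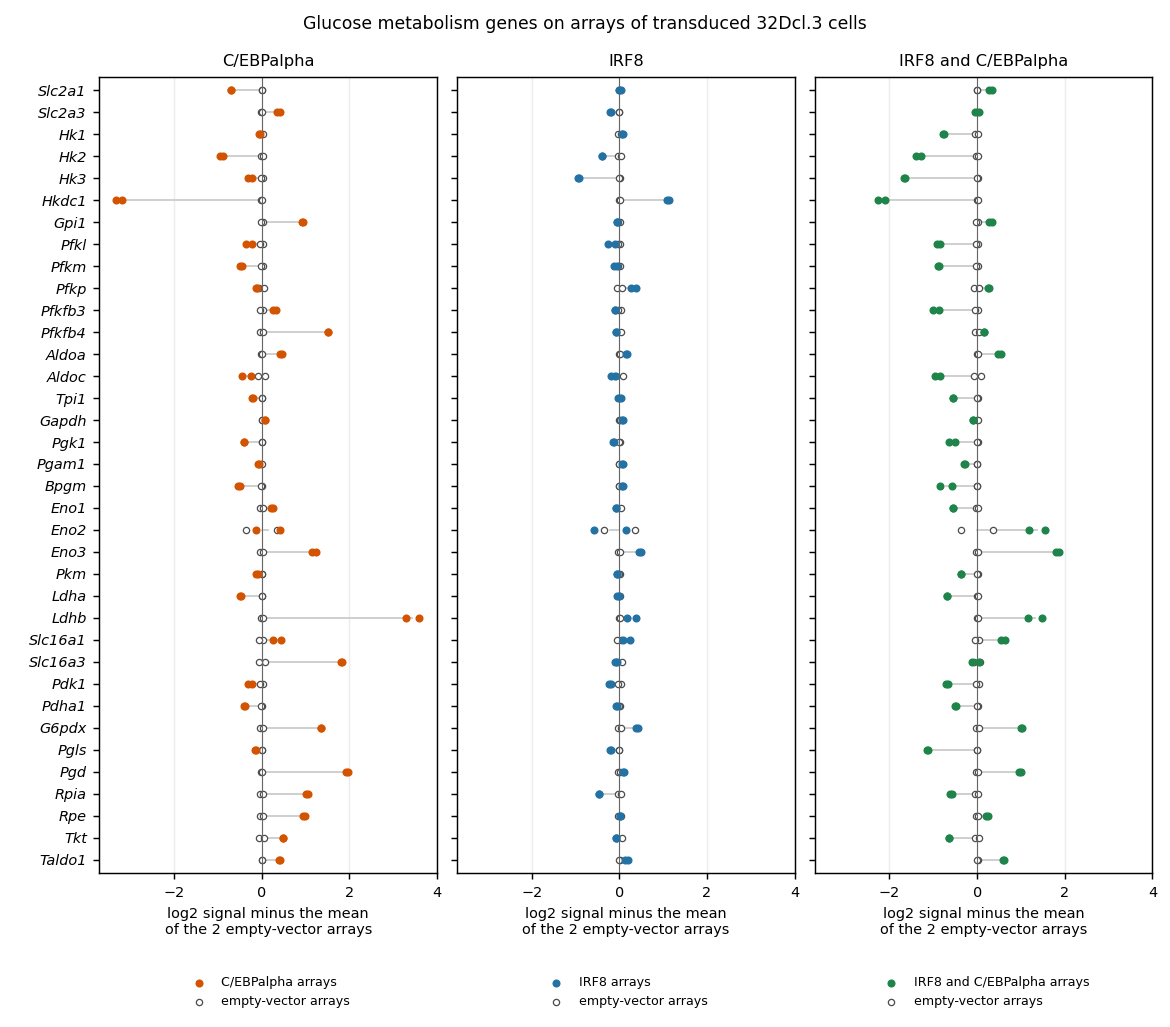
Log2 signal of the 36 members (rows) on each factor array minus the mean of the 2 empty-vector arrays (horizontal axis, log2 units), in 3 panels by factor. Filled points are factor arrays, open points empty-vector arrays. Pgd and G6pdx sit at 1.94 and 1.35 with C/EBPalpha and at 0.99 and 1.02 with both factors, and Hkdc1 is at 1.11 with IRF8 and -3.25 with C/EBPalpha.

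Both factors together were compared with empty vectors. All 4 hexokinases fell, as did Pgls, Ldha and the glycolytic enzymes Tpi1, Pgk1, Bpgm, Eno1 and Pkm, whereas Eno3, G6pdx and Pgd rose. Of 36 members 13 were called higher and 21 lower, against 38.0% and 46.8% of all genes, with a median of -0.431 against -0.0991. Of these, 3 higher and 17 lower kept their call under all 5 other settings, the 3 being Eno3, G6pdx and Pgd. Slc2a1, Gpi1, Pfkp, Pfkfb4, Aldoa, Gapdh, Pgam1, Slc16a1, Rpe and Taldo1 changed direction in at least one setting.

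Hkdc1 stood at -2.46 and -2.62 with both factors, against -0.36 and -0.34 with empty vectors, a change of -2.18 (SE 0.102, limma adjusted p = 7.71e-10) that became -0.95 with normexp background correction. Hk3 stood at 2.55 and 2.56 with both, against 4.23 and 4.20, a change of -1.66 (SE 0.0343, limma adjusted p = 4.44e-13). Hk2 stood at 1.28 and 1.40 with both, against 2.66 and 2.71, a change of -1.34 (SE 0.0461, limma adjusted p = 4.31e-11). Hk1 stood at 4.71 and 4.72 with both, against 5.44 and 5.51, a change of -0.76. Every hexokinase was lower on both arrays than on either empty-vector array. Eno3 stood at 2.27 and 2.33 with both, against 0.44 and 0.49, a change of 1.84 (SE 0.049, limma adjusted p = 4.13e-12). Eno1 stood at 7.81 and 7.80 with both, against 8.32 and 8.38, a change of -0.55. Eno2, best known from neurons, stood at -2.66 and -3.02 with both and at -3.85 and -4.57 with empty vectors, a change of 1.37 (SE 0.345, limma adjusted p = 0.00288). Eno3 rose and Eno1 fell, each with a call under all 5 other settings. Eno2 was called higher but is dim, and its call was not kept under all 5.

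Ldhb stood at -5.88 and -5.57 with both factors and was not well above background there or with empty vectors, so no fold is given. Ldha, at 8.38 and 8.37 with both against 9.06 and 9.07, changed by -0.69, and by -1.19 to -0.69 across its probes. In the pentose phosphate pathway, Pgls, the lactonase, stood at 2.77 and 2.76 with both against 3.90 and 3.90, a change of -1.13 (SE 0.0291, limma adjusted p = 2.92e-12). G6pdx changed by 1.02 (SE 0.0305, limma adjusted p = 1.18e-11) and Pgd by 0.99, so in the same oxidative arm the outer steps rose and the middle one fell. Rpia at -0.60 and Tkt at -0.64 fell, and Taldo1 at 0.60 and Rpe at 0.23 were called higher but changed direction in another setting. Gapdh gave -0.76 to 0.39 across its 7 probes and Pfkp 0.26 and -0.49 across 2, so neither has a settled direction. All 10 neutrophil genes were called higher (summed signal 1850), and all 9 proliferation genes lower (81.1 to 82.0 against 385 to 401 with empty vectors). All 7 tested monocyte and dendritic progenitor genes were called higher as well (185 to 188 against 22.0 to 22.5), with Csf1r at 4.54. Mmp8 and Ccr2 were above background on no empty-vector array, so their calls are no support. The part of these programmes in the members' changes was not tested.

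Adding IRF8 to C/EBPalpha was compared with C/EBPalpha alone, which shows what IRF8 did in the presence of the other factor; these comparisons share C/EBPalpha or empty-vector arrays with the ones above. Members fell: 28 of 36 were called lower and 6 higher, against 37.9% and 34.4% of all genes, with a median of -0.397 against 0.0012. Of these, 23 lower and 3 higher, Slc2a1, Hkdc1 and Eno3, kept their call under all 5 other settings. In the pentose phosphate pathway 6 of 7 genes were called lower. Rpia stood at 2.27 and 2.22 with both factors and at 3.91 and 3.87 with C/EBPalpha, a change of -1.64 (SE 0.0364, limma adjusted p = 3.71e-12). Slc16a3 stood at -0.40 and -0.56 with both and at 1.36 and 1.39 with C/EBPalpha, a change of -1.86 (SE 0.0744, limma adjusted p = 5.61e-10). Hk3 changed by -1.39 (SE 0.0343, limma adjusted p = 8.72e-12). In each case the groups were far apart.

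Pfkfb4 stood at 0.36 and 0.35 with both factors and at 1.71 and 1.71 with C/EBPalpha, a change of -1.35 (SE 0.0517, limma adjusted p = 3.62e-10). Pfkfb3 stood at 1.55 and 1.68 with both and at 2.82 and 2.88 with C/EBPalpha, a change of -1.23 (SE 0.0478, limma adjusted p = 4.15e-10). On the arrays with both factors Pfkfb3 was also below, and Pfkfb4 above, the empty-vector arrays, by -0.93 and 0.15. The direction of Pfkfb4 there changed in at least one other setting. Tkt, transketolase, changed by -1.13 (SE 0.0342, limma adjusted p = 4.96e-11), Pgd by -0.96 and Rpe by -0.74. Ldhb fell to below background with both factors and was at least 1.18-fold lower than with C/EBPalpha. Its change of -2.12 was 0.03 with normexp background correction. It entered the fit only through the C/EBPalpha arrays, so no p-value is given. Slc2a1 stood at 3.86 and 3.93 with both and at 2.90 and 2.89 with C/EBPalpha, a change of 1.00, with no overlap of groups. All 10 neutrophil genes were called lower with both factors than with C/EBPalpha (summed signal 1850 against 3370 to 3410). So were all 9 proliferation genes (81.1 to 82.0 against 219 to 224). Monocyte and dendritic progenitor genes went both ways, 5 of 7 tested higher and 2 lower (185 to 188 against 59.1 to 60.8). The part of these programmes was not tested.

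The interaction asks whether the effect of both factors differs from the sum of the single effects. For 23 of 36 members it was called negative, against 31.8% of all genes, and for 2 positive, against 23.8%, with a median of -0.308 against -0.0138. Of these, 19 negative and 1 positive, Slc2a1, kept their call under all 5 other settings. The largest negative value was that of the dim Ldhb at -2.39, which gave -0.28 with normexp background correction. Ldhb was above background only with C/EBPalpha and entered the fit through those arrays alone, so its value is no support. Next came Slc16a3 at -1.78 (SE 0.105, limma adjusted p = 5.93e-08), Pfkfb4 at -1.28 (SE 0.0731, limma adjusted p = 4.46e-08) and Rpia at -1.18 (SE 0.0515, limma adjusted p = 4.7e-09). Pfkfb3 followed at -1.13 (SE 0.0676, limma adjusted p = 6.74e-08). Among 7 pentose phosphate genes 6 were negative, Pgd at -1.05, Tkt at -1.05 and G6pdx at -0.73 among them. Slc2a1 was positive at 0.98 (SE 0.0458, limma adjusted p = 8.11e-09), with 3.60 and 3.63 with IRF8 and 3.60 and 3.60 with empty vectors. Eno2 was positive at 1.44 (SE 0.488, limma adjusted p = 0.0262), a call that held in 4 of 8 fits that left out 1 array, and its probe was above background on 1 C/EBPalpha and 1 IRF8 array. Hkdc1, whose single effects were -3.25 and 1.11, gave -0.04 and was not called. All 9 proliferation genes had a called negative interaction (median -1.37), as did 8 of 10 neutrophil genes, with 2 positive (median -1.1). Monocyte and dendritic progenitor genes went both ways, 4 of 7 tested positive and 3 negative (median 0.294). Mmp8 and Ccr2, both negative, were above background on no empty-vector array, so their values are no support. The part of these programmes in the members' interactions was not tested.

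**Figure D3:**
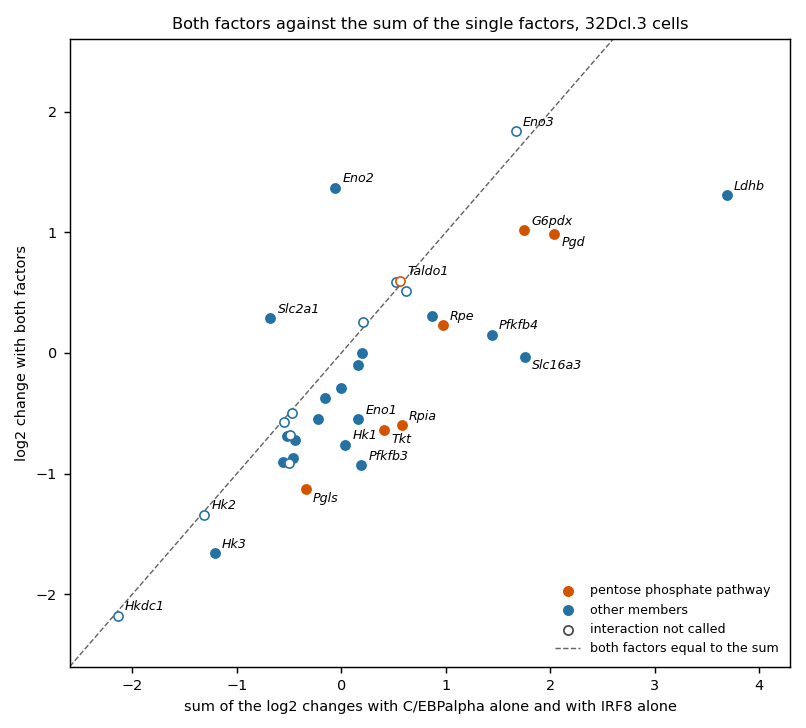
Log2 change with both factors (vertical axis) against the sum of the log2 changes with C/EBPalpha alone and with IRF8 alone (horizontal axis) for 36 members. The dashed line marks equality, open points are members whose interaction was not called, and orange points are pentose phosphate genes. Most points lie below the line, 23 with a called negative interaction, and Slc2a1 and Eno2 lie above it.

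Because isozymes are read by different probes, their levels cannot be set against each other, but the change of their ratio within an array can, and it does not depend on scaling an array by a constant. Over the alternatives, which include other background corrections and probe rules, 81 ratio values moved by less than the spread between arrays, 73 moved by more and 8 reversed. With 2 arrays a group no exact permutation test of a ratio can go below p = 0.333, so ratios are given as values. How often the ratios of other gene pairs separate the groups was not computed, so no count of separated isozyme pairs is given. Ratios below are of pairs above background on all 4 arrays unless Hkdc1 is named. The log2 ratio of Hk1 to Hk3 changed by -0.94 in Irf8KO MDPs, -0.96 in Irf8KO cMoPs and 1.02 with IRF8. It was thus lower where IRF8 was missing and higher where it was added. With C/EBPalpha alone the ratio of Hk1 to Hk3 also rose, by 0.23. The ratio of Slc2a1 to Slc2a3 changed by 1.60 in Irf8KO cMoPs, 0.37 in Irf8KO MDPs and -1.09 with C/EBPalpha. The ratio of Ldha to Ldhb changed by 1.23 in Irf8KO MDPs and 0.77 in Irf8KO cMoPs. The other Ldha probes fell further than the brightest one used here, so with them the ratio changes less.

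With both factors against empty vectors, Eno1 over Eno3 changed by -2.38, Aldoa over Aldoc by 1.42, and Pfkl and Pfkm over Pfkp by -1.13 and -1.16, though the 2 Pfkp probes disagreed. Pfkfb3 over Pfkfb4 changed by -1.20 with C/EBPalpha and -1.08 with both. Slc16a1 over Slc16a3 changed by -1.47 with C/EBPalpha against empty vectors and by 2.10 with both against C/EBPalpha. Ratios to Hkdc1 turned under normexp background correction with both factors against empty vectors.

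**Figure D4:**
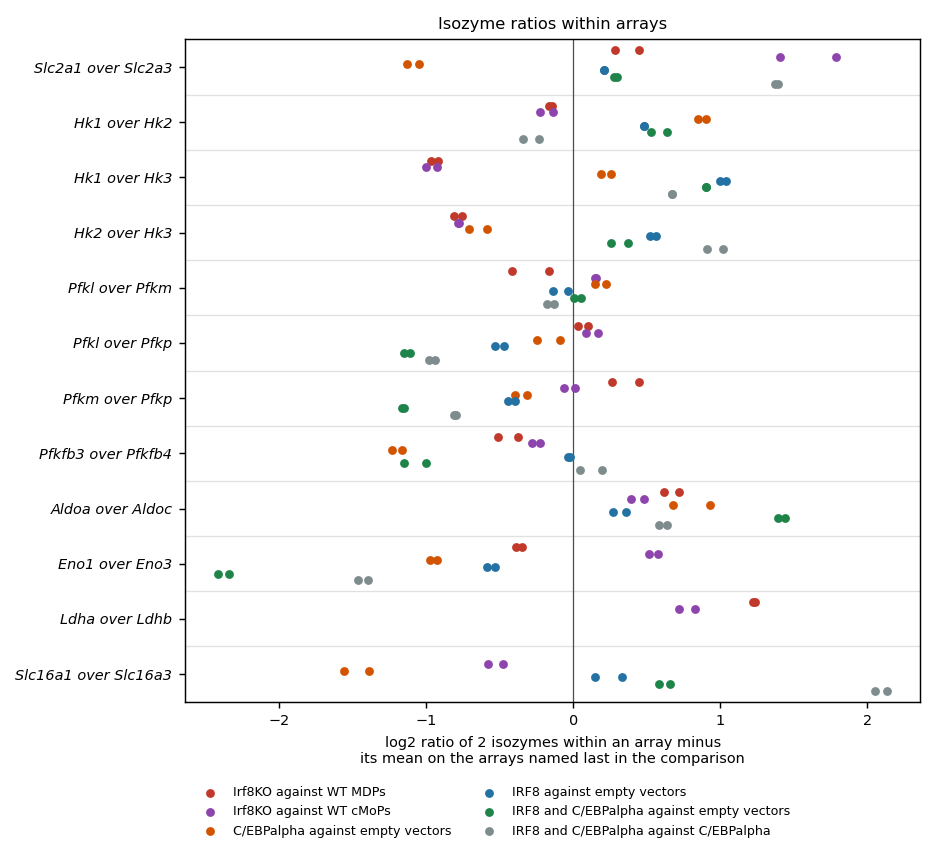
Log2 ratio of 2 isozymes within each array minus its mean on the arrays named last in the comparison (horizontal axis, log2 units), for 12 pairs (rows) and 6 comparisons (colours), 2 points a comparison. Hk1 over Hk3 lies near -0.94 in both Irf8KO comparisons and near 1.02 with IRF8, and Eno1 over Eno3 reaches -2.38 with both factors.

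The pentose phosphate genes were set against the citric acid cycle within arrays as a further description that scaling an array by a constant leaves as it is. The mean log2 signal of the 7 pentose phosphate genes minus that of 18 citric acid cycle genes changed by 1.57 with C/EBPalpha, 1.13 with both factors and 0.09 with IRF8. It changed by 0.18 in Irf8KO MDPs and 0.47 in Irf8KO cMoPs. With both factors against C/EBPalpha it changed by -0.44. The same difference for 17 glycolytic genes was 0.65 with C/EBPalpha, 0.68 with both and 0.05 with IRF8. All 18 citric acid cycle genes were called lower with C/EBPalpha (median -0.618) and with both factors (median -0.901), and 16 of 18 in Irf8KO cMoPs (median -0.234). Of all genes 47.2%, 46.8% and 31.1% were called lower in these comparisons, with medians of -0.141, -0.0991 and -0.0255. Under the 5 other settings 16 to 18 were lower with C/EBPalpha, 18 with both factors and 15 to 18 in Irf8KO cMoPs. Among them was Idh3a, a subunit of isocitrate dehydrogenase, at -1.63 with C/EBPalpha and -2.58 with both.

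**Figure D5:**
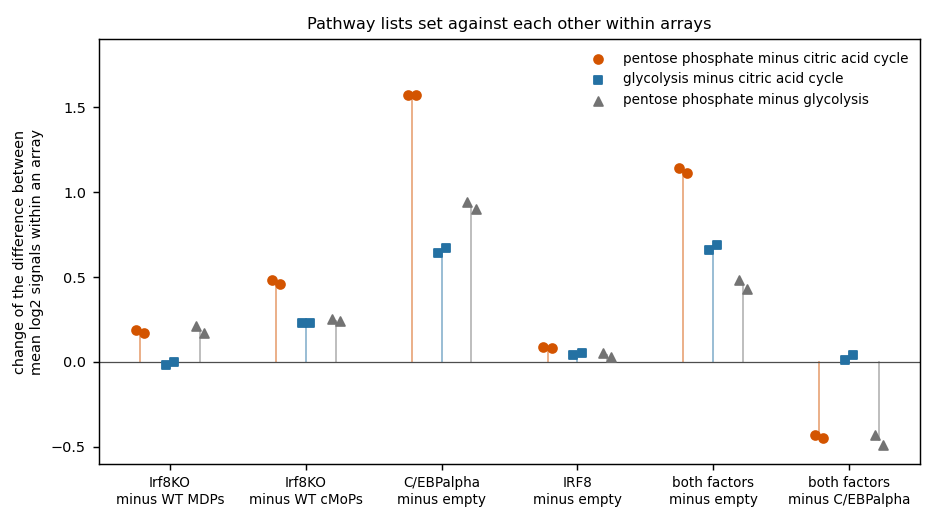
Change of the difference between mean log2 signals of 2 gene lists within an array (vertical axis, log2 units), for 6 comparisons, 2 points a comparison. Circles are pentose phosphate minus citric acid cycle, squares glycolysis minus citric acid cycle, and triangles pentose phosphate minus glycolysis. The circles stand at 1.57 with C/EBPalpha and 1.13 with both factors, and at 0.09 with IRF8.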

How the data were processed

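RNA was labelled with Cy3 and hybridised to Agilent arrays; per the file headers, intensity values were extracted by the authors with Agilent Feature Extraction 10.7.3.1, and the deposited flags mark spots above background, outliers and saturation as other values. The deposited series values are also intensity values: for most probes the MDP and cMoP columns were 1 constant per array times the scanner signal (log2 correlation over all probes 0.9994 on MDP arrays and 1 on cMoP arrays), and 32Dcl.3 columns share 1 median and 1 upper quartile, as after quantile normalization.

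From the processed signal, outlier spots and controls were dropped, spots averaged, and log2 taken relative to the 75th percentile of each array. The brightest probe stood for a gene (9 members have several, 27 have 1). Genes that exceeded background on both arrays of 1 or more groups of a system entered limma 3.58.1 (R 4.3.3; lmFit on group means, eBayes with trend, Benjamini-Hochberg), fitted per system with 4 residual degrees of freedom; the code was tested on simulated data. Spread was pooled over groups, so p-values rest on 2 arrays a group; the number of arrays limits the precision. The normexp alternative (offset 50) used the median foreground, as the mean was not in the files.

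Per comparison, values on each array are given for up to 6 members with the largest called changes of at least 0.5, and for their isozymes; other lists give up to 3 largest called genes. Members and lists were chosen with earlier results of these data known.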

Additional observations from a re-analysis of the deposited data

Results flagged for a closer look

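Members whose Irf8KO effect differed between stages, by the test of the difference itself, were Pfkfb3 at 1.04, Slc16a3 at 1.01, Pfkfb4 at 0.85, Rpia at 0.52, Slc2a3 at -0.84 and Eno3 at -0.56 (log2, effect in cMoPs minus effect in MDPs). Pfkfb3, Pfkfb4 and Rpia were higher in Irf8KO than in WT cMoPs by more than in MDPs, and Slc16a3 was lower in Irf8KO MDPs and higher in Irf8KO cMoPs. The call for Eno3 held in 2 of 8 fits that left out 1 array.

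Members whose effect of both factors differed from the sum of the single factors, by the interaction term, were Ldhb at -2.39, Slc16a3 at -1.78, Pfkfb4 at -1.28, Rpia at -1.18, Pfkfb3 at -1.13 and Eno2 at 1.44 (log2). Ldhb was well above background only on the C/EBPalpha arrays and entered the fit through them alone, so its value is no support. Eno2 held its call in 4 of 8 fits that left out 1 array.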

How the results depend on the processing

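Direction and call of most named results held: over all alternatives 1279 of the values for named members kept both, 59 no longer passed the threshold, 15 newly passed it and 9 reversed. Scaling mattered most, since array-median scaling brought the median of all genes to -0.118 in MDPs, -0.339 in cMoPs, -0.449 with C/EBPalpha and -0.755 with both factors, against -0.0251, -0.0255, -0.141 and -0.0991. Under it the members called higher were 2 in Irf8KO MDPs, 6 in Irf8KO cMoPs (19 lower), 4 for the stage difference, 11 with C/EBPalpha, 6 with IRF8 (5 lower), 4 with both factors and 1 for the interaction, and Slc2a1 and Hk2 in cMoPs became -0.02 and -0.30 and Pfkfb3 with C/EBPalpha -0.00. With the percentile over detected probes, quantile normalization and the deposited values, 8, 11 and 11 members were lower with C/EBPalpha, and Hk1 became 0.17, 0.20 and 0.21 (-0.21 with normexp, -0.35 with the array median); the first also gave 5 positive interactions. Without a filter on dim probes the stage difference had 11 higher members and the interaction 1; without the intensity trend 12 and 1, and IRF8 6. With normexp 8 members were higher with both factors, Hk1 with IRF8 became -0.01 and Ldhb for both against C/EBPalpha 0.03. With probes averaged Hk1 with IRF8 became -0.00. Isozyme ratios reversed with normexp for Hk1, Hk2 and Hk3 over Hkdc1 with both factors (-0.17, -0.51, -0.97), and for Pfkfb3 over Pfkfb4 (-0.07) and Aldoa over Aldoc (-0.01) with both against C/EBPalpha. With probes averaged they reversed for Pfkl over Pfkp in MDPs (-0.05) and Pfkfb3 over Pfkfb4 in cMoPs (0.08) and with both against C/EBPalpha (-0.50). The cause was not tested.

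Leaving out 1 array gave 11 to 18 higher members for the stage difference, 6 to 8 higher and 5 to 9 lower with IRF8, and 1 to 3 positive interactions; the 1 was reached without 32D_empty, 32D_CEBPalpha or 32D_IRF8 replicate 1. Fitting a slide alone changed 0 of 9 named results in MDPs and 0 of 11 in cMoPs. The replicate block changed 1 of 75 named results and gave 5 higher and 16 lower members in MDPs, 14 and 12 in cMoPs, 18 and 3 for the stage difference, 17 and 17 with C/EBPalpha, 9 and 8 with IRF8, 13 and 21 with both, 6 and 27 against C/EBPalpha, and 3 and 23 for the interaction. Same-numbered arrays did not deviate together (correlations -0.066 to 0.078), so the numbers were not taken to pair arrays. The 2 arrays of a group differed with an SD of 0.301 in Irf8KO MDPs and 0.198 in Irf8KO cMoPs, while the fit shares 1 spread per gene. Ldhb, Eno2 and Hkdc1 are limited by signal over background in 32Dcl.3 cells or progenitors.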

Other observations

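Outside the list, some glucose-related genes showed large changes. Those named here were picked as the up to 3 largest called changes of a list, so they do not stand for their lists. In Irf8KO cells the lysosomal glucose transporter Slc2a6 changed by -1.54 in MDPs and -3.17 in cMoPs, while the gluconeogenic enzyme Fbp1 changed by 1.34 and 2.29 and the glycogen phosphorylase Pygl by 0.86 and 1.43. Fbp1 changed by -0.90 with IRF8 and -2.53 with both factors. Vegfa, a hypoxia-responsive growth factor, changed by 2.78 in Irf8KO MDPs and 3.63 in Irf8KO cMoPs, and in cMoPs the sugar-sensing partner Mlx by 1.33 and Hif1a by 0.85.

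With C/EBPalpha, Pygl changed by 2.75, whereas the serine and one-carbon enzymes Psat1 and Shmt2 changed by -1.67 and -1.74 and the ribose-phosphate pyrophosphokinase Prps1 by -1.46. With both factors these were -3.02, -2.99 and -2.16, and Myc changed by -3.44, against -1.35 with C/EBPalpha and -0.48 with IRF8. Txnip, which restrains glucose uptake, changed by 1.63 with both factors. All of these passed the limma threshold. Counts over these lists were 7 higher and 21 lower of 33 other enzymes with C/EBPalpha, and 6 and 22 with both factors. Of all genes 31.5% were called higher and 47.2% lower with C/EBPalpha, and 38.0% and 46.8% with both factors. Of 15 tested genes of the glycogen, hexosamine and serine branches, 6 were higher and 9 lower with C/EBPalpha and 5 and 9 with both factors. Of 23 regulators, 12 were higher and 4 lower in Irf8KO cMoPs, where 22.9% of all genes were higher and 31.1% lower, and 12 and 7 with both factors. Under array-median scaling these became 3 and 9 in Irf8KO cMoPs and 4 and 15 with both factors, so the balance of the regulators turned with the scale. Every single gene named here kept its direction under the 5 other background and scaling settings, Myc with IRF8 included.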
